A study of Drosophila melanogaster with 3 samples.

Results

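The 8 genes described here encode the core of the integrin adhesion complex of Drosophila melanogaster: the integrin subunits mew, if and mys, the talin rhea, the vinculin Vinc, and Ilk, stck and parvin, which encode integrin-linked kinase, PINCH and parvin. The members were taken by name, and every summit of the dm6 optimal peak list that lay in one of them or within 5 kb of it was counted. That gave 60 of the 13583 optimal summits, and all 8 genes had at least 1.

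All chromatin came from a single group, and no condition was compared with it. It consisted of whole embryos of mixed sex, 0 to 24 h after laying, from 1 transgenic fly line that stably expressed the transcription factor Pdp1 with eGFP at its C-terminus, and all 3 biological replicates carried that fusion. Chromatin was sonicated to 200 to 800 bp and precipitated with an antibody against GFP. The values are peak lists with a signal per peak, which is the authors' own value from their peak caller and has no unit. Signals have another scale in each list, so each is given with its rank by signal, with rank 1 the strongest, and is not averaged over lists. The pooled list and each replicate list held 30000 lines. Read counts were not in these lists, so the depth is unknown. Whole embryos mix muscle, tendon and all other cells, so a stronger peak in fewer cells and a weaker peak in more cells cannot be told apart. Which Pdp1 isoforms the fusion represents is not given in the sources used here.

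Integrins are cell surface receptors made of an alpha and a beta chain that hold cells to the extracellular matrix and, inside the cell, to actin. In the fly embryo they anchor the ends of the body wall muscles to tendon cells of the epidermis: the alphaPS1 chain made by mew acts mainly on the tendon side, the alphaPS2 chain made by if on the muscle side, and the betaPS chain made by mys pairs with both. Talin binds the tail of the beta chain, vinculin binds talin and actin, and integrin-linked kinase, PINCH and parvin form a complex that strengthens the link. Pdp1 belongs to the PAR bZIP factors, which bind a palindrome of the form TTACGTAA and its close relative TTATGTAA, and it is known as a regulator of muscle genes.

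The sequences at the 7 member summits that held such a word are shown first, to give the positions of the word in and around these genes. They are from the Release 6 genome, plus strand, 5′ to 3′, with the PAR site in capitals. TTACATAA is TTATGTAA read on the opposite strand. Runs of 30 bases stand where the summit lies near an untranslated region, and the others span 50 bp on each side of the summit. Matches at summits and their shares are descriptions of these letters, not tests of binding to them.
mew, promoter of mew-RB, mew-RC, mew-RD and mew-RF, chrX:13257077-13257106: aaaaatgattaTTACGTAAagaattagaca
mew, intron, chrX:13234904-13235004: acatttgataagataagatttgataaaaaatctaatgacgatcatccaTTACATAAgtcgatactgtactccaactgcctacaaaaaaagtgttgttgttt
mew, upstream, in comt, chrX:13259725-13259825: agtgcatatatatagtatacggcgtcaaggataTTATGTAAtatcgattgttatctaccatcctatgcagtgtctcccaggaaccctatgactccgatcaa
if, intron, chrX:16757961-16758061: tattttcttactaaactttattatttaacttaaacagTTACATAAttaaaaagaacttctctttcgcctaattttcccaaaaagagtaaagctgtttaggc
mys, first intron, chrX:8062077-8062106: aatagtgggtaTTACGTAAgaaatcaatgg
rhea, intron, chr3L:8554582-8554682: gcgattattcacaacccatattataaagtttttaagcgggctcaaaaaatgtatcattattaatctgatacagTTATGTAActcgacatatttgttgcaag
parvin, upstream, at COX6B, chrX:19744025-19744054: gcatcagcgagTTATGTAActtgtactttt

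The members carried many summits, most of them not at the strongest levels of the list. Windows of the gene and 5 kb around it totalled 209296 bp, and the median density was 3.0 summits per 10 kb among the member windows and 1.33 among the windows of all 13945 protein-coding genes. Not corrected for length, the median window held 6.5 summits among the members and 2.0 among all protein-coding genes. Of all protein-coding genes, 71.1% had a summit in such a window. Pooled signals of the member summits went from 163 to 2245 with a median of 408, and those of the whole optimal list went from 159 to 11903 with a median of 331. Among the strongest 10% of the list were 8 of the 60 (13.3%), and 37 of them (61.7%) were among its 6791 strongest summits.

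Summits were spread unevenly over the members. The alpha chain genes had the most, with 15 at mew, which only 70 protein-coding genes exceeded, and 14 at if, which 90 exceeded. The beta chain gene mys had 6, rhea had 8, Vinc had 4, parvin had 7 and stck had 5. Ilk had 1, and 7776 genes had more than that. mew, if and rhea are also the longest members, at 44082, 31246 and 29409 bp, and Ilk is the shortest at 2340 bp. Per 10 kb of window the order differed. There parvin had 5.64 summits, stck 3.85, if 3.39, mys 3.23, mew 2.77, Vinc 2.2, rhea 2.03 and Ilk 0.81. Several summits can share an interval, and the 60 summits lay in 58 intervals.

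**Figure D1:**
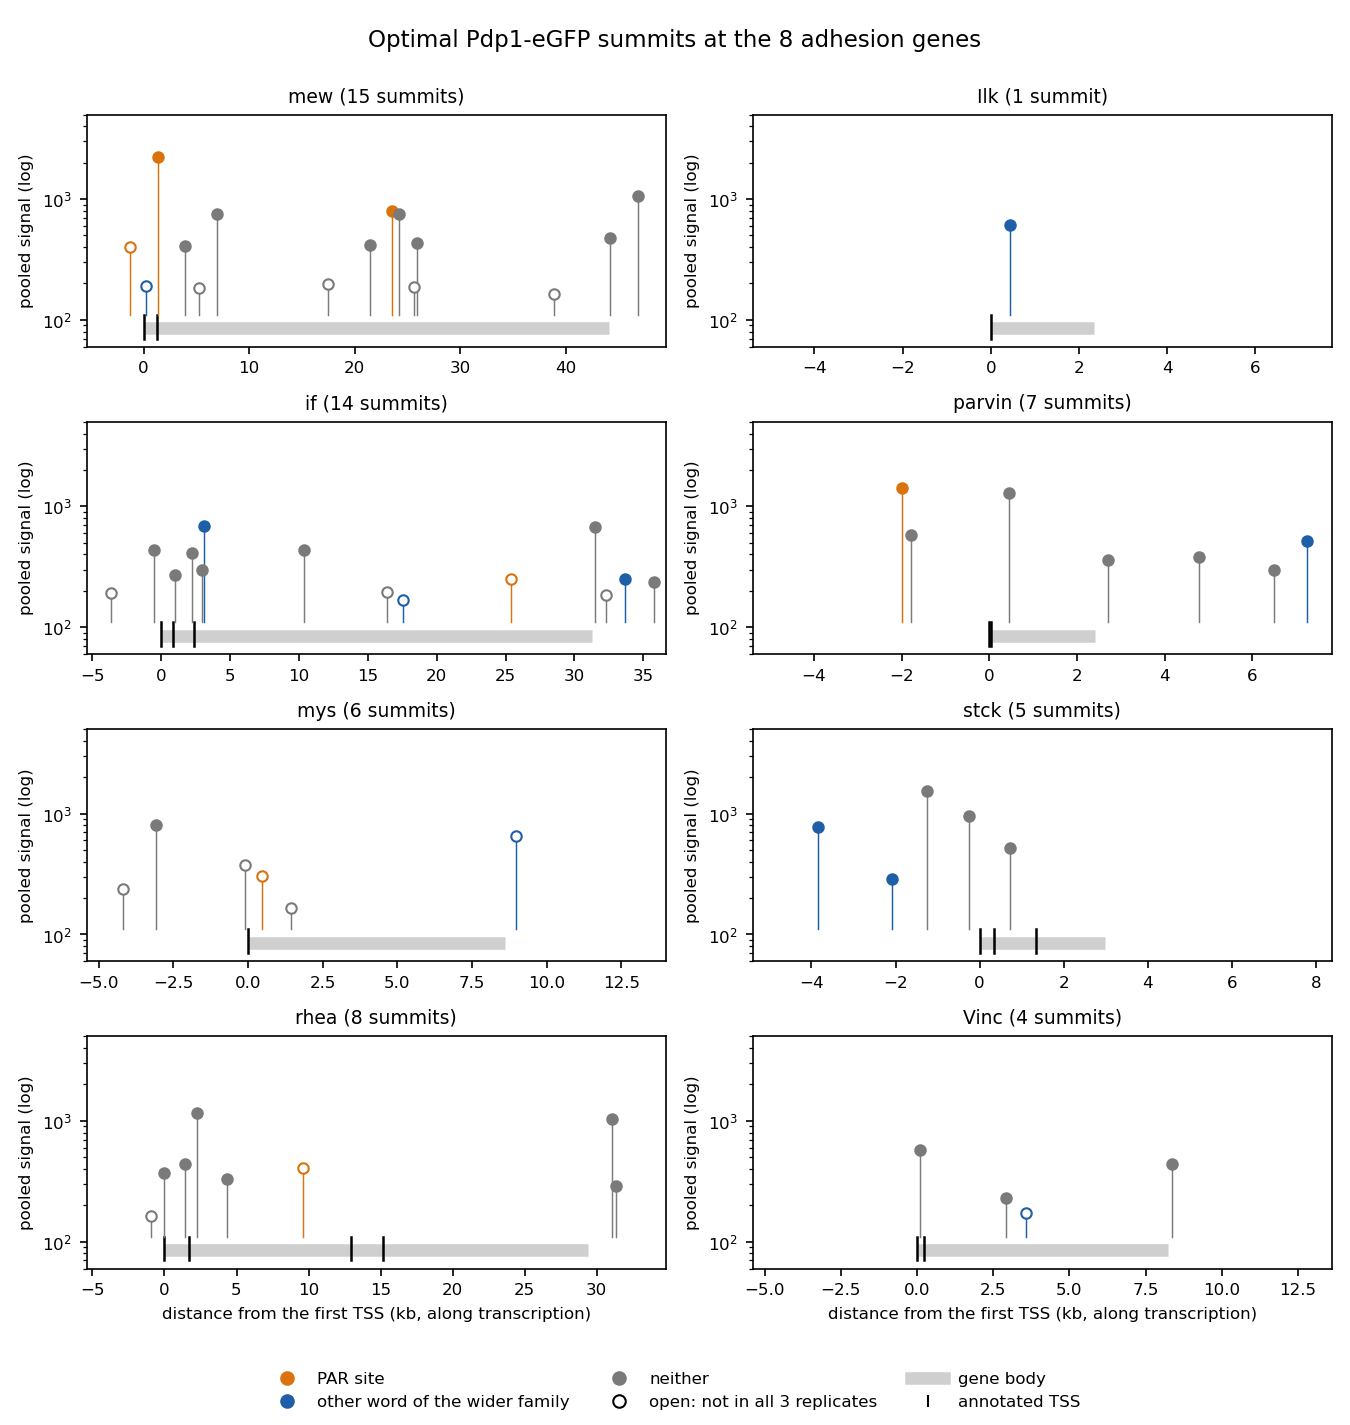
Optimal Pdp1-eGFP summits at each of the 8 genes, with distance from the first annotated transcription start site (kb, along the direction of transcription) on the horizontal axis and pooled signal (log scale, no unit) on the vertical axis. Each point is 1 summit, coloured by the site within 50 bp, and open points were not found in all 3 replicates. The tallest point is the mew promoter summit at 2245, and Ilk has a single summit at 609.

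By position, 18 of the 60 summits lay within 1 kb of a transcription start site (TSS) of a member, 19 lay elsewhere in the gene, 9 lay in the upstream flank and 14 in the downstream flank. All 19 in the gene body were intronic in every transcript that spanned them. A summit no more than 1 kb from a TSS was present at each of the 8 genes, against 44.1% of all protein-coding genes. That background share differed with gene length, being 39.3% of genes under 5 kb (the class of Ilk, parvin and stck), 59.6% of those of 5 to 20 kb (mys and Vinc) and 55.8% of those of 20 kb or more (mew, if and rhea), and the members have from 1 TSS (mys and Ilk) to 4 (rhea). The part of length and TSS number in the members' count was not tested. Neighbouring TSSs can share a summit, as the 2 of parvin do, and the share over all TSSs is not given here. Of the 18 member TSSs, 16 had a summit within 1 kb. The exceptions were those of the later-starting transcripts rhea-RE and rhea-RF, whose nearest summits were 3332 and 5536 bp away. With a window of 250 bp the count fell to 7 summits at 5 genes, and the share of all protein-coding genes at that window is not given here.

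The flanks belong largely to other genes. Of the 28 summits outside the members, 22 had the TSS of a neighbour as their nearest. Within 1 kb of the TSS of any protein-coding gene lay 33 of the 60 (55.0%, 95% Wilson interval 42.5% to 66.9%, counting error only), against 50.9% of all optimal summits.

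The strongest summit of all was at a promoter of mew, the alphaPS1 gene (FBgn0004456, X:13214409-13258490, minus strand). The gene starts at 1 TSS for mew-RA and mew-RE and at another for mew-RB, mew-RC, mew-RD and mew-RF. At the second, a peak at X:13256866-13257431 had its summit 70 bp downstream of the TSS, in the 5′ UTR of these 4 transcripts, with TTACGTAA centred 21.5 bp away. Its signal was 2245 in the pooled list (rank 226), and 1397, 420 and 429 in replicates 1, 2 and 3, at ranks 192, 529 and 154. All 3 replicates thus placed it near the top of their lists. At the TSS of mew-RA and mew-RE the summit 197 bp downstream was much weaker, with a pooled signal of 192 (rank 11693) and 146, 30.1 and 19.6 in the replicates, at ranks 9742, 18144 and 19402. That summit lay only 25 bp from the TSS of CG15742, so the promoters cannot be told apart there.

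The introns of mew held 10 summits beyond 1 kb of its TSSs, with pooled signals from 164 to 795, and 6 of them were found in all 3 replicates. Among these 6, a summit with a pooled signal of 418 lay 503 bp from the TSS of CG32639, which starts inside mew. A summit counts as found in a replicate where any of its 13583 strongest lines lay within 200 bp, while the values given are those of the nearest line. The highest of these intronic summits, 22229 bp downstream of the nearer mew TSS at X:13234671-13235132, had TTACATAA centred 1.5 bp from it. It had a pooled signal of 795 (rank 1801) and 533, 148 and 128 in replicates 1, 2 and 3, at ranks 1636, 3308 and 1940. CG32639 starts 1612 bp from this summit. The next summit along the gene, 22891 bp from the same TSS, had a similar pooled signal of 755 and held no word of the PAR family. Upstream of mew, in a summit inside comt, the gene of the vesicle fusion protein NSF, the pooled signal was 399 (rank 5353), and the replicate signals were 355, 19.0 and 24.7 at ranks 3346, 25729 and 16097. This site was therefore high in replicate 1 and low in the other replicates. Beyond the 3′ end, a summit 53 bp from the TSS of sno had a pooled signal of 1057.

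At if, the alphaPS2 gene (FBgn0001250, X:16752189-16783434, minus strand), no promoter came near the level of the main mew promoter. All 5 summits within 1 kb of its 3 TSSs were found in all 3 replicates, and their pooled signals were 271 to 689. The strongest, at X:16780114-16780418, lay in the first intron 791 bp downstream of the TSS of if-RF and held TTATATAA, a relative of the PAR site. Its signal was 689 in the pooled list (rank 2344), and 476, 89.8 and 126 in replicates 1, 2 and 3, at ranks 2024, 6376 and 1966. A second one, 590 bp downstream of that TSS, had a pooled signal of 299 (rank 7684) and 185, 39.6 and 67.8 in the replicates, at ranks 7622, 14410 and 5296. It counted as found in replicate 2 through a stronger line within 200 bp. The third, 99 bp upstream of the same TSS, had a pooled signal of 410 (rank 5153) and 273, 97.1 and 55.0 in the replicates, at ranks 4812, 5789 and 6936. So if-RF, the transcript with the most downstream start, had 3 of the 5.

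The other if promoters had 1 summit each. The one 125 bp downstream of the TSS of if-RD had a pooled signal of 271 (rank 8501) and 113, 103 and 59.0 in the replicates, at ranks 12095, 5408 and 6375. The one 542 bp upstream of the TSS of if-RB and if-RC had a pooled signal of 434 (rank 4772) and 209, 149 and 77.5, at ranks 6682, 3295 and 4349, but it lay 43 bp into mRpL22, a mitochondrial ribosomal protein gene. Inside if, 4 summits lay beyond 1 kb of its TSSs, and 1 of them was found in all 3 replicates. The PAR site of if was at an intronic summit 23063 bp downstream of the if-RF start, at X:16757939-16758090, with a pooled signal of 250 (rank 9182) and 214, 23.8 and 17.5 in the replicates, at ranks 6493, 21852 and 21104. As at the comt site, replicate 1 ranked it higher than the other replicates did. Past the 3′ end a summit 53 bp from the TSS of goe had a pooled signal of 678.

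mys, the gene of the betaPS chain shared by both receptors (FBgn0004657, X:8061645-8070237, plus strand), stood apart from the other members in its replicates: neither of its summits near its single TSS was found in all 3. The one 87 bp upstream of the TSS, at X:8061331-8061761, had a pooled signal of 375 (rank 5833) and 83.3, 179 and 154 in replicates 1, 2 and 3, at ranks 15386, 2505 and 1373. The one 453 bp downstream, in the first intron at X:8061917-8062278 with TTACGTAA centred 6.5 bp away, had a pooled signal of 305 (rank 7503). It had 327 in replicate 1 (rank 3790) and 36.4 in replicate 2 (rank 15543), and no line of replicate 3 lay within 200 bp. These neighbouring summits ran in opposite directions over the replicates, the upstream one weak in replicate 1 and the intronic one strong only there. The strongest summit of the mys window was not at mys but inside fs(1)h, a gene for a bromodomain protein. It lay 213 bp upstream of an fs(1)h TSS and had a pooled signal of 807 (rank 1752). The replicates gave 466, 198 and 137, at ranks 2098, 2117 and 1700. A summit past the 3′ end of mys, in the 3′ UTR of Upf2, had a pooled signal of 654.

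rhea, the talin gene (FBgn0260442, 3L:8545001-8574409, plus strand), had its main summit in an intron next to an internal promoter. The peak at 3L:8546866-8547518 lay 607 bp downstream of the TSS of rhea-RD, rhea-RH and rhea-RI, and no PAR family word was within 50 bp. It had a pooled signal of 1161 (rank 894) and 760, 289 and 174 in replicates 1, 2 and 3, at ranks 795, 1107 and 1116, so the replicates ranked it nearly alike. A copy of TTATGTAA lay 66 bp from that summit, outside the 50 bp searched, and within 50 bp of the summit of the nearest replicate 1 line. A summit 270 bp upstream of the same TSS had a pooled signal of 437 (rank 4721) and 254, 93.8 and 87.8 in the replicates, at ranks 5304, 6051 and 3608.

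At the first rhea TSS, that of rhea-RB, rhea-RC and rhea-RG, a summit 44 bp upstream had a pooled signal of 368 (rank 6002) and 177, 144 and 53.8, at ranks 8006, 3458 and 7141. It was the only member summit with the DRE, the motif TATCGATA known from promoters of housekeeping genes. Another, 908 bp upstream, was the weakest of all members with a pooled signal of 163 (rank 13327) and 66.0, 61.0 and 33.3, at ranks 17955, 9585 and 12230. The PAR site of rhea was at an intronic summit at 3L:8554476-8554803, with a pooled signal of 408 (rank 5194) and 351, 27.8 and 32.3 in the replicates, at ranks 3403, 19358 and 12588. It too was ranked higher in replicate 1 than in the other replicates. Beyond the 3′ end, a peak 31 bp from the TSS of CG6638 had a pooled signal of 1028. rhea lies 677632 bp from the Pdp1 gene on the same arm, far outside its flanks.

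Vinc, the vinculin gene (FBgn0004397, X:2214347-2222567, minus strand), had 1 summit near its TSSs, 96 bp downstream of the start of Vinc-RB and 123 bp upstream of that of Vinc-RA and Vinc-RC. It had a pooled signal of 576 (rank 3198) and 244, 247 and 87.2 in replicates 1, 2 and 3, at ranks 5576, 1445 and 3644. Replicate 2 ranked it highest. The 2 intronic summits of Vinc were weak, with pooled signals of 232 and 174, and no Vinc summit held the PAR site.

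The genes of the integrin-linked kinase complex are short, between 2340 and 2987 bp, and their promoter summits all ranked among the strongest 13583 lines of every replicate. parvin (FBgn0052528, X:19746041-19748458, plus strand) had a summit in its first intron, 409 bp downstream of the TSS of parvin-RA, with a pooled signal of 1282 (rank 733). The replicates gave 809, 268 and 211 at ranks 695, 1268 and 764. It held no PAR family word. The strongest summit of the parvin window belonged to a neighbour, 5 bp upstream of a TSS of COX6B, a subunit gene of cytochrome c oxidase, and held TTATGTAA centred 13.5 bp away. It had a pooled signal of 1428 (rank 596) and 1050, 201 and 187 in the replicates, at ranks 379, 2061 and 973. Of the 7 parvin summits, all were found in all 3 replicates, but 6 were nearer to a neighbour's TSS.

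stck, the PINCH gene (FBgn0020249, 3R:8356978-8359964, plus strand), was flanked by the second strongest member summit, which lay 1258 bp upstream of its first TSS at 3R:8355383-8356020 and had no nearer gene start. Its pooled signal was 1544 (rank 512), and the replicates gave 721, 551 and 287 at ranks 861, 304 and 413. It held no word of the PAR family. A summit 257 bp upstream of that TSS had a pooled signal of 950 (rank 1286) and 621, 141 and 205 in the replicates, at ranks 1177, 3545 and 811. The one 382 bp downstream of the TSS of stck-RB, which held a MEF2 site (the element bound by the muscle factor Mef2), had a pooled signal of 521 (rank 3701) and 331, 74.1 and 90.4, at ranks 3727, 7815 and 3453. All 5 stck summits were found in all 3 replicates.

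Ilk (FBgn0028427, 3L:21216901-21219240, plus strand) had a single summit, 440 bp downstream of its TSS, in the first intron of Ilk-RA and the 3′ UTR of Ilk-RB. It held TTGTGTAA, a relative of the PAR site. The pooled signal was 609 (rank 2902), and the replicates gave 352, 142 and 111 at ranks 3392, 3532 and 2462, so the 3 ranked it alike.

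**Figure D2:**
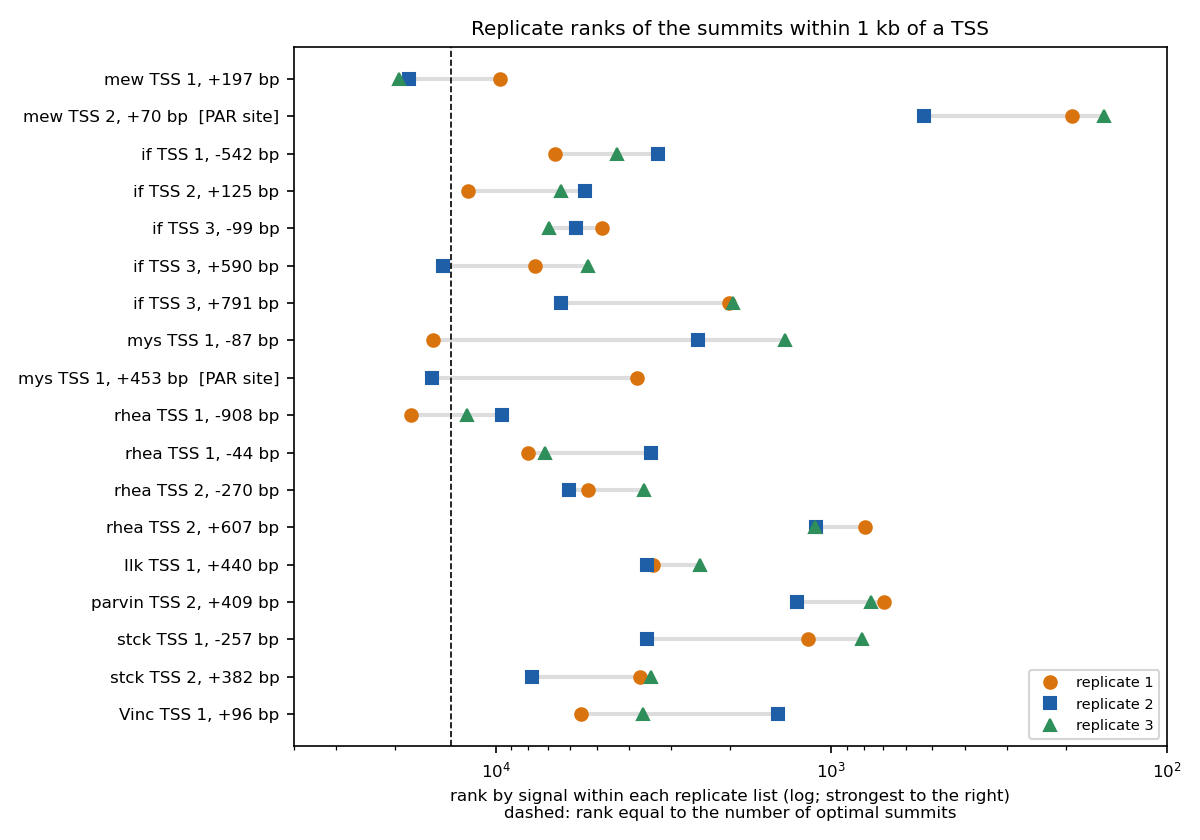
Rank by signal (log scale, strongest to the right) in each replicate list for the 18 summits within 1 kb of a member TSS; rows give the TSS, numbered in the direction of transcription, and the distance of the summit from it. Each symbol is the nearest line of 1 replicate and the dashed line marks rank 13583. The mew promoter summit is the farthest right, at ranks 192, 529 and 154, and the intronic mys summit has no replicate 3 symbol.

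In all 3 replicates were found 41 of the 60 member summits (68.3%, Wilson interval 55.8% to 78.7%), against 60.6% of all optimal summits, so the members' share was near that background. For 1 of the 41, at if, replicate 2 was met by a line other than the nearest. Replicate 1 held 53 of the 60 (88.3%) among its strongest lines, replicate 2 held 48 (80.0%) and replicate 3 held 50 (83.3%), against 89.3%, 76.3% and 79.2% of all optimal summits. Of the 18 promoter summits, 14 were found in all 3, but the 60.6% is over all optimal summits and not those near a TSS alone. A promoter summit found in all 3 replicates was present at 7 of the 8 genes, all but mys, against 34.2% of protein-coding genes. Below the optimal list the pooled list held another 75 lines in these windows, the strongest with a signal of 157.

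The PAR site lay within 50 bp of 7 of the 60 summits (11.7%, interval 5.77% to 22.2%), against 12.0% of all optimal summits, so its share at the members was close to that in the whole list. In windows centred 300 bp from the summits it was at 0 of the 60 member summits, which allows a share of up to 6.02% by the Wilson interval, and at 0.788% of all optimal summits. Requiring a summit to be found in both of the other replicates left 3 of the 7 without replicate 1, 4 without replicate 2 and 3 without replicate 3. Promoter summits with the site were present at 2 of the 8 genes, mew and mys, against 5.36% of protein-coding genes. The wider family, the 10 words TTACGTAA, TTACATAA, TTATATAA, TTATGCAA, TTACGCAA, TTGCGCAA, TTGTGTAA, TTGTATAA, TTGCACAA and TTGTACAA searched on both strands, was at 17 (28.3%, interval 18.5% to 40.8%), against 35.8%. It includes the PAR site. Among the member summits TTATGTAA was the most frequent word, at 5, followed by TTATGCAA at 4, and TTACGTAA, TTATATAA and TTGTATAA were at 2 each; in the whole list TTATGTAA was at 1295 summits, TTATATAA at 1166, TTATGCAA at 869, TTGTATAA at 335 and TTACGTAA at 334.

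Shares of the other motifs were small in the members and in the whole list. The E-box CAGCTG, an element bound by muscle and other basic helix-loop-helix factors, was at 4 summits (6.67%), against 5.68% of all optimal summits. The MEF2 site was at 3 (5.0%), those in mys, stck and Vinc, against 3.11%. The DRE was at 1 (1.67%), against 1.91%. In windows 300 bp away the E-box was at 5 and the MEF2 site at 7 member summits, against 4.38% and 3.59% of all optimal summits, and counts this small give no direction.

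**Figure D3:**
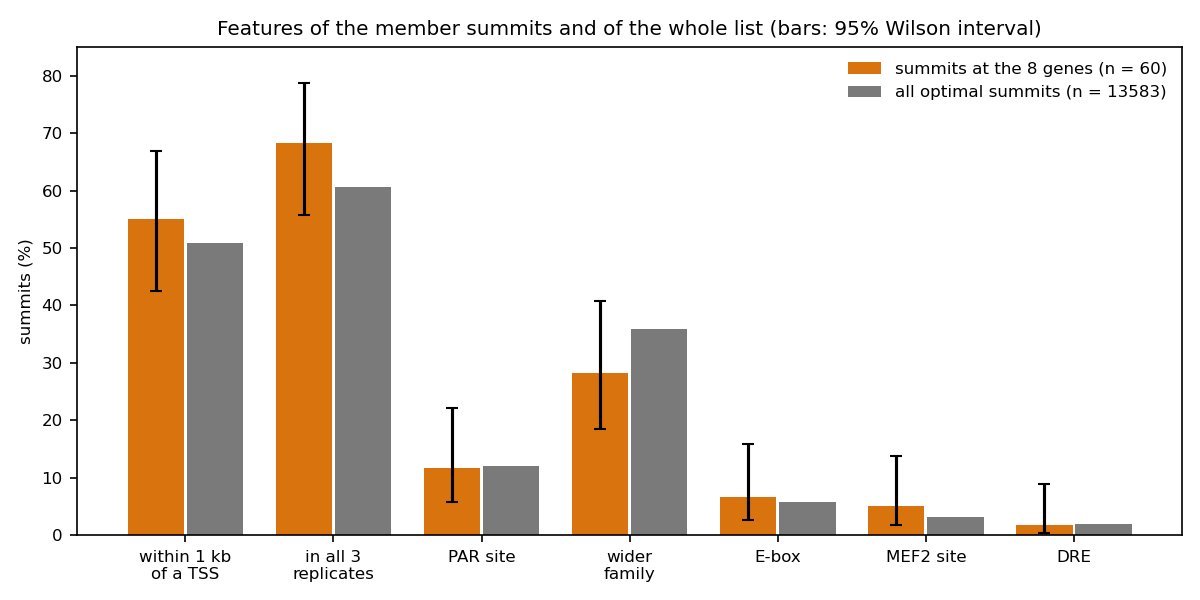
Share of summits (%) with each feature for the 60 summits at the 8 genes (orange) and all 13583 optimal summits (grey); error bars are 95% Wilson intervals on the member shares and cover counting error only. In every pair the grey bar lies within the member interval, including the PAR site at 11.7% and 12.0%.

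Most copies of the PAR site in these genes were not at a summit. The windows held 18 copies, of which 7 (38.9%) lay within 50 bp of an optimal summit, against 15.2% of the 10954 copies on the 6 arms. Summits were also denser in the windows, at 2.87 per 10 kb against 1.01 over the 6 arms. The part of this density in the share of copies was not tested. mew had 3 of its 5 copies at a summit, parvin 1 of 2, if 1 of 2, mys its only 1 and rhea 1 of 5. Ilk, stck and Vinc each had 1 copy, and these were at no optimal summit. The copy near Vinc lay in its 3′ UTR, 624 bp from the nearest summit, and the one near Ilk in a coding exon of CG10508. Including weaker lines, 10 of the 18 copies lay within 50 bp of a pooled summit and 11 within 50 bp of a replicate 1 summit.

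Replicate ranks are given by the site at the summit. Of the 7 member summits with the PAR site, 6 had their best rank in replicate 1, as did 83.1% of all optimal summits with the site, and the exception was the mew promoter, which ranked best in replicate 3. Their median ranks were 3346 in replicate 1, 15543 in replicate 2 and 12588 in replicate 3. Of the 43 member summits with no word of the wider family, 8 (18.6%) ranked best in replicate 1, against 20.4% of such summits in the whole list, and their median ranks were 6682, 4584 and 5245. Of the 10 member summits with another word of the family, 2 ranked best in replicate 1, against 65.7% of such summits in the whole list. That difference rests on only 10 summits and was not tested. Found in all 3 replicates were 3 of the 7 PAR site summits (42.9%, Wilson interval 15.8% to 75.0%), namely the mew promoter, the mew intron and the COX6B start, against 45.8% of PAR site summits in the whole list. It was 6 of the 10 with another family word, against 57.7%, and 32 of the 43 with no family word (74.4%, interval 59.8% to 85.1%), against 64.4%. The intervals of the member classes with the PAR site and with no family word overlap.
Sequencing depth and other properties of the libraries that could bear on this were not in the lists, and their part was not tested. Over the member summits present in both lists, Spearman's rho of the ranks was 0.45 between replicates 1 and 2 (n = 58), 0.74 between 1 and 3 (n = 58) and 0.80 between 2 and 3 (n = 56). Over all optimal summits it was 0.44, 0.61 and 0.70. These describe peaks of the same 3 libraries, with no test.

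**Figure D4:**
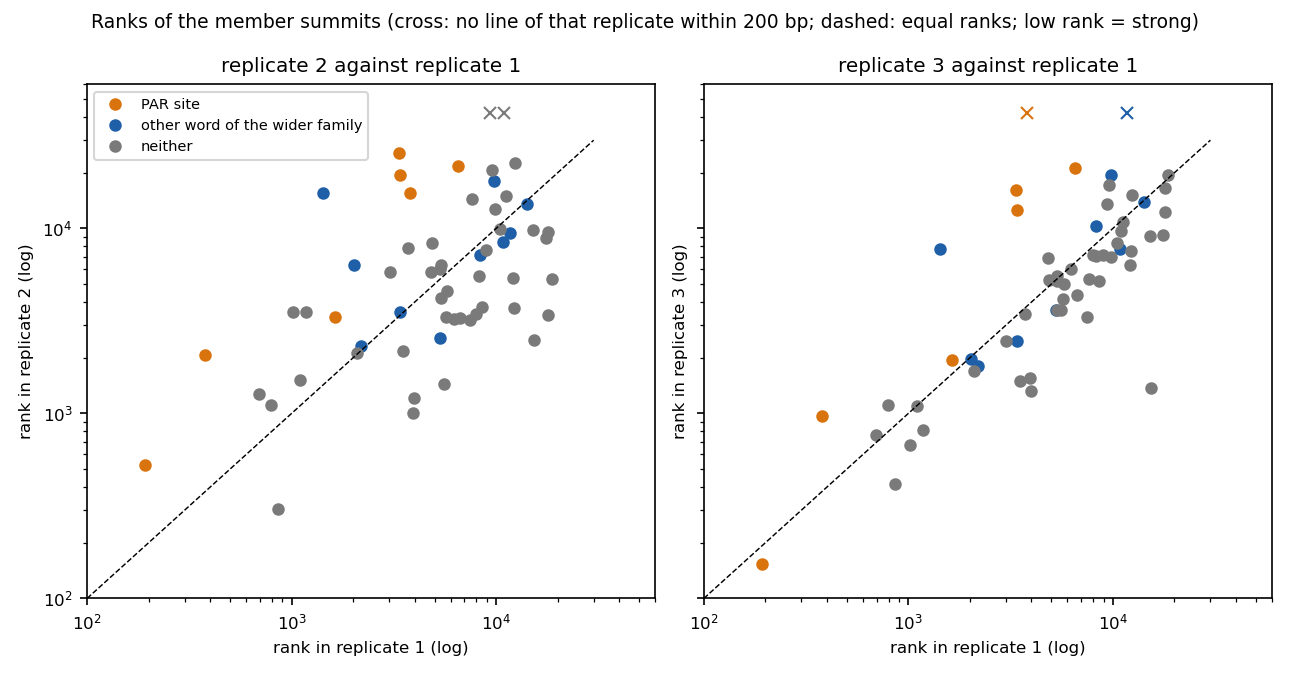
Rank of each member summit in replicate 2 (left) and replicate 3 (right) against its rank in replicate 1, on log axes with low ranks strongest; colours give the site within 50 bp, the dashed line marks equal ranks and crosses mark summits with no line of that replicate within 200 bp. All 7 orange points (PAR site) lie above the line in the left panel; in the right panel the mew promoter point lies below it and the mys site is a cross.

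Other genes of integrin adhesion and muscle attachment were counted in the same way. Of 26 such genes, 17 (65.4%) had a promoter summit, here one no more than 1 kb from a TSS, against 44.1% of all protein-coding genes. That background share was 39.3% of genes under 5 kb, 59.6% of those of 5 to 20 kb and 55.8% of those of 20 kb or more. The 26 genes are 2790 bp (Fit2) to 77874 bp (shot) long, and the part of length and TSS number was not tested. A promoter summit found in all 3 replicates was present at 14 of the 26, against 34.2%, and one with the PAR site at 0 of them, against 5.36%. Among the remaining integrin subunits 2 of 4 had one, scb at a pooled signal of 386 and Itgbn at 416, while ItgaPS4 and ItgaPS5 had none. Among matrix ligands it was 5 of 6, with LanB2 at 688, LanA at 595 and Tig at 379, the first pair being laminin chains and Tig the integrin ligand tiggrin. wb, a laminin alpha chain gene, had none. Among cytoplasmic adhesion proteins 7 of 9 had one, led by the kindlin gene Fit1 at 1360, the paxillin gene Pax at 1097 and CAP at 997. The second kindlin gene, Fit2, had none, and p130CAS missed the limit with a summit 1010 bp from a TSS.

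Tendon and attachment genes had such a summit at 3 of 7 (42.9%), against 44.1% of all protein-coding genes. All 7 are 14711 bp or longer, and the share was 59.6% of genes of 5 to 20 kb and 55.8% of those of 20 kb or more. The spectraplakin gene shot, which links actin to microtubules in tendon cells, reached a pooled signal of 2170 (rank 245), close to that of mew, with 1360, 480 and 345 in replicates 1, 2 and 3, at ranks 210, 397 and 256. The RNA-binding protein gene how followed at 616, and drl, a receptor gene that guides muscle attachment, was at 165. The tendon determinant sr and kon, Lrt and slow, which act at the muscle-tendon junction, had no promoter summit. Each of these 4 had between 3 and 6 summits in the gene or within 5 kb of it.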

How the data were processed

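Anti-GFP ChIP-seq peak lists of 3 biological replicates of Pdp1-eGFP embryos were used, with replicate numbers from the labels. Per the deposited file records, the authors called peaks against a control alignment, once per replicate and once on all replicates pooled, and passed these relaxed lists to IDR, which asks how reproducible peak ranks are, to obtain the optimal list. Aligner, caller and IDR versions: not given in the sources used here. Each peak's deposited signal is the authors' value; depth is unknown. Lists on the older assembly were not used.

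Summit positions came from the lists and are 1-based on dm6. Every optimal line was checked to be among the 13583 strongest pooled lines. Gene models were those of Ensembl release 115 and sequence was the Release 6 genome of NCBI; the names of all 8 members were matched. A summit's value in a replicate is that of the nearest line within 200 bp. Motifs were searched on both strands, wholly within 50 bp of the summit, for 5 motifs. Scripts ran in python 3.11.15 with pandas 2.3.3 and scipy 1.17.1 and were checked on simulated lists with known answers.

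The members, the list of 26 further genes and the motifs were chosen with earlier results of these data known, so shares are set beside those of all genes or summits and no tests were made. Named were the strongest summit of each member, all within 1 kb of a member TSS, all with the PAR site, up to 3 genes of each role in the further list by signal and those of it with no promoter summit; other summits named were chosen after their values were seen. Alternatives changed the signal threshold, the flank, the TSS window, the matching distance, the lines taken per replicate, the motif window, the unit of counting and the replicates required.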

Additional observations from a re-analysis of the deposited data

How the results depend on the processing

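With 1 group and lists without read counts, peak strength between replicates was limited to ranks, and neither depth nor a control library could be weighed. No paired analysis was possible because there is 1 group. Of 40 alternative values for the counts over members, 31 were within 1.5 times the reported one. Taking only the 6791 strongest optimal lines left 37 of 60 summits. The gene body alone held 32 summits, 20 of them in all 3 replicates, and 1 kb around the gene held 27 in all 3. A TSS window of 250 bp gave 7 summits and 5 genes, with no share of all genes at that window beside them. Requiring both other replicates when 1 was left out, which is stricter by construction, gave 42 to 46 summits, 14 to 16 near a TSS, 7 to 8 genes and 3 to 4 summits with the PAR site. Matching within 100 or 500 bp changed no rank of a member's strongest summit.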

Other observations

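Several sites more than 1 kb from any member TSS had far-apart ranks in the replicates. Besides the PAR site summits in comt, if and rhea described above, 3 of them are given here. They were chosen after their values were seen. The summit past the 3′ end of mys, in the 3′ UTR of Upf2, which held TTATATAA, had signals of 565, 36.1 and 50.3 in replicates 1, 2 and 3, at ranks 1429, 15627 and 7780. A summit inside fs(1)h, 765 bp upstream of an fs(1)h TSS, was also in the mys window and had no PAR family word. Its signals were 65.8, 146 and 24.0, at ranks 18005, 3390 and 16488. The summit 743 bp downstream of the TSS of goe, beyond the 3′ end of if and with no such word, had 62.2, 104 and 19.4, at ranks 18680, 5296 and 19537. Replicate 1 was highest at the first of these and replicate 2 at the other sites.

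Promoters of neighbours were well represented around parvin, with summits 58 bp downstream of the Abcd3 TSS at a pooled signal of 383 and 165 bp upstream of the Alr TSS at 357, and around Vinc, with a summit 397 bp upstream of SmydA-8 at 439.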
